A study of Rattus norvegicus with 54 samples.

Results

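The genes described here handle heme and iron in the heart. They were matched by symbol to the first column of all 54 deposited count tables, and 10 of the 40319 listed genes were taken: Hmox1, Blvrb, Fth1, Ftl1, Tfrc, Slc11a2, Slc11a1, Slc40a1, Cp and Hamp. All 10 were found and passed the filter on low counts in each comparison. RNA came from the left ventricle of female athymic rats of the strain F344/NJcl-rnu/rnu, which were 8 weeks old at surgery and carry 2 copies of the rnu allele, so that a thymus and most T cells are missing. Sham hearts had a sham operation and received no treatment. Untreated MI hearts had the left anterior descending coronary artery (LAD) tied permanently and received no treatment. Cell sheet hearts had the same ligation and then received a bi-level sheet of human smooth muscle cells and human endothelial progenitor cells on the epicardium. Each of the 18 hearts was taken 1 week after surgery and gave an infarct zone (anterior wall), a border zone (lateral wall) and a remote zone (septum) library, so that the 9 groups hold 6 libraries each.

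Heme released from myoglobin and hemoglobin is opened by heme oxygenase, which frees its iron, and biliverdin reductases turn the resulting biliverdin into bilirubin. Free iron is either stored inside ferritin, a shell of heavy and light chains, or leaves the cell through ferroportin with the help of a copper oxidase, and the peptide hormone hepcidin shuts ferroportin. Cardiomyocytes take up iron mainly through the transferrin receptor for their mitochondria, whereas macrophages clear dead cells and red blood cells and recycle the iron in them.

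Counts on genes ranged from 12699204 to 23397754 per library, and levels are given as CPM, the count of a gene relative to the library total after TMM scaling. Cardiomyocyte markers, summed over 10 genes, had medians of 72100 to 78100 CPM in the sham zones and 13400 CPM in the untreated infarct zone, and all 10 fell there. Macrophage markers, also summed over 10 genes, had medians of 428 to 737 CPM in the sham zones, and 5810 CPM in the untreated infarct zone. Lyz2 led this sum, with a median of 28643.5 counts over all libraries, against 3298 for C1qc, the next gene. Sham heart 5 stood apart: its macrophage markers summed to 7540, 13100 and 13000 CPM in the remote, border and infarct zones, and its 6 T and B cell markers to 175, 275 and 223 CPM. The remote library of cell sheet heart 1 also stood apart, with 3340 CPM of macrophage markers against a group median of 584 CPM, and so did its border library, with 519 CPM of cardiomyocyte markers against a group median of 25700 CPM. Results that rest on these hearts are given with and without them. In bulk tissue, fewer cells of a type and less RNA per cell cannot be told apart. Some sheets of the study were loaded with an iron oxide contrast agent for imaging, and whether the sheets on these hearts carried it is not given in the sources used here. Reads of the human cells that align to a rat gene cannot be told apart from rat reads.

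For 6 of the 10 genes RefSeq (GRCr8) holds a promoter window of 250 bases before and 50 bases after the gene start. The windows of Hamp and Tfrc are shown because these genes had the lowest adjusted p among those 6 in the infarct zone of untreated MI against sham, in opposite directions. The 250 upstream bases lie at chr1:95300272-95300521 for Hamp and at chr11:81690319-81690568 for Tfrc, both on the minus strand, and capitals mark matches to 4 short motifs searched on both strands.
Hamp: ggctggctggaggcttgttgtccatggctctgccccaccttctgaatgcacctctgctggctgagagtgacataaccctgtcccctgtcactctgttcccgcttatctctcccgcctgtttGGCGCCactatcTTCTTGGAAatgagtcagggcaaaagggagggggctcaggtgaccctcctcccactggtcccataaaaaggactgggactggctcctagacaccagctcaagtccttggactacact
Tfrc: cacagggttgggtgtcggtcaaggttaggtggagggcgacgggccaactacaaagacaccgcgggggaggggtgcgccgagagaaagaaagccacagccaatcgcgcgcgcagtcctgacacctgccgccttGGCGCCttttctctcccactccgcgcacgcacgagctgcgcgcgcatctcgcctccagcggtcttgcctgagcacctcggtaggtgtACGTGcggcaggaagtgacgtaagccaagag

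In the Hamp window the letters GGCGCC, a response element for bone morphogenetic protein signals, began 129 bases and TTCTTGGAA, a match to the STAT site TTCNNNGAA, began 117 bases before the gene start, and the matches did not overlap. The Tfrc window held GGCGCC 118 bases and ACGTG, the core of the hypoxia response element, 31 bases before the start. GGCGCC was in 11% of all 33469 RefSeq promoter windows, TTCNNNGAA in 8.87%, ACGTG in 19.3% and TGACNNNGC, the antioxidant response core, in 12.1%. The last of these was in none of the 7 windows of the members, which include 2 for Slc11a2. Hmox1, Fth1, Ftl1 and Slc11a1 had no entry.

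In the infarct zone of untreated MI, the transcripts of heme oxygenase 1 (Hmox1), light chain ferritin (Ftl1), ceruloplasmin (Cp) and hepcidin (Hamp) were higher than in sham, and those of the transferrin receptor (Tfrc), DMT1 (Slc11a2) and biliverdin reductase (Blvrb) were lower. Of the 10 genes, 4 rose and 3 fell against sham (edgeR quasi-likelihood test, adjusted p under 0.05 over all genes), while 49.9% of all genes tested were called, 22.7% higher and 27.2% lower. The median absolute log2 fold change was 1.56 over the 10 genes and 0.52 over all genes. The border zone had 4 genes that rose and 0 that fell (41.7% of all genes called), with a median absolute log2 fold change of 0.99 against 0.45 over all genes. Remotely, 2 rose and 0 fell (25.8% of all genes called), with 0.43 against 0.31. Scaling by library size in place of TMM moves the median log2 fold change of all genes by 0.26 (infarct), 0.19 (border) and 0.13 (remote) in this comparison, and fold changes are given relative to the TMM scale. Of the called genes 45.5%, 44.2% and 45.1% were higher in the 3 zones with TMM, against 67.1%, 64.1% and 68.6% with library size. The border zone effect was also tested against the remote and the infarct zone effect, as treatment by zone interactions with the animal as a block. Both tests called 0 of the 10 genes and 0% of all genes, with 3995 and 1430 genes at an unadjusted p under 0.05. A call in 1 of these zones and not in the other is therefore no difference between them.

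**Figure D1:**
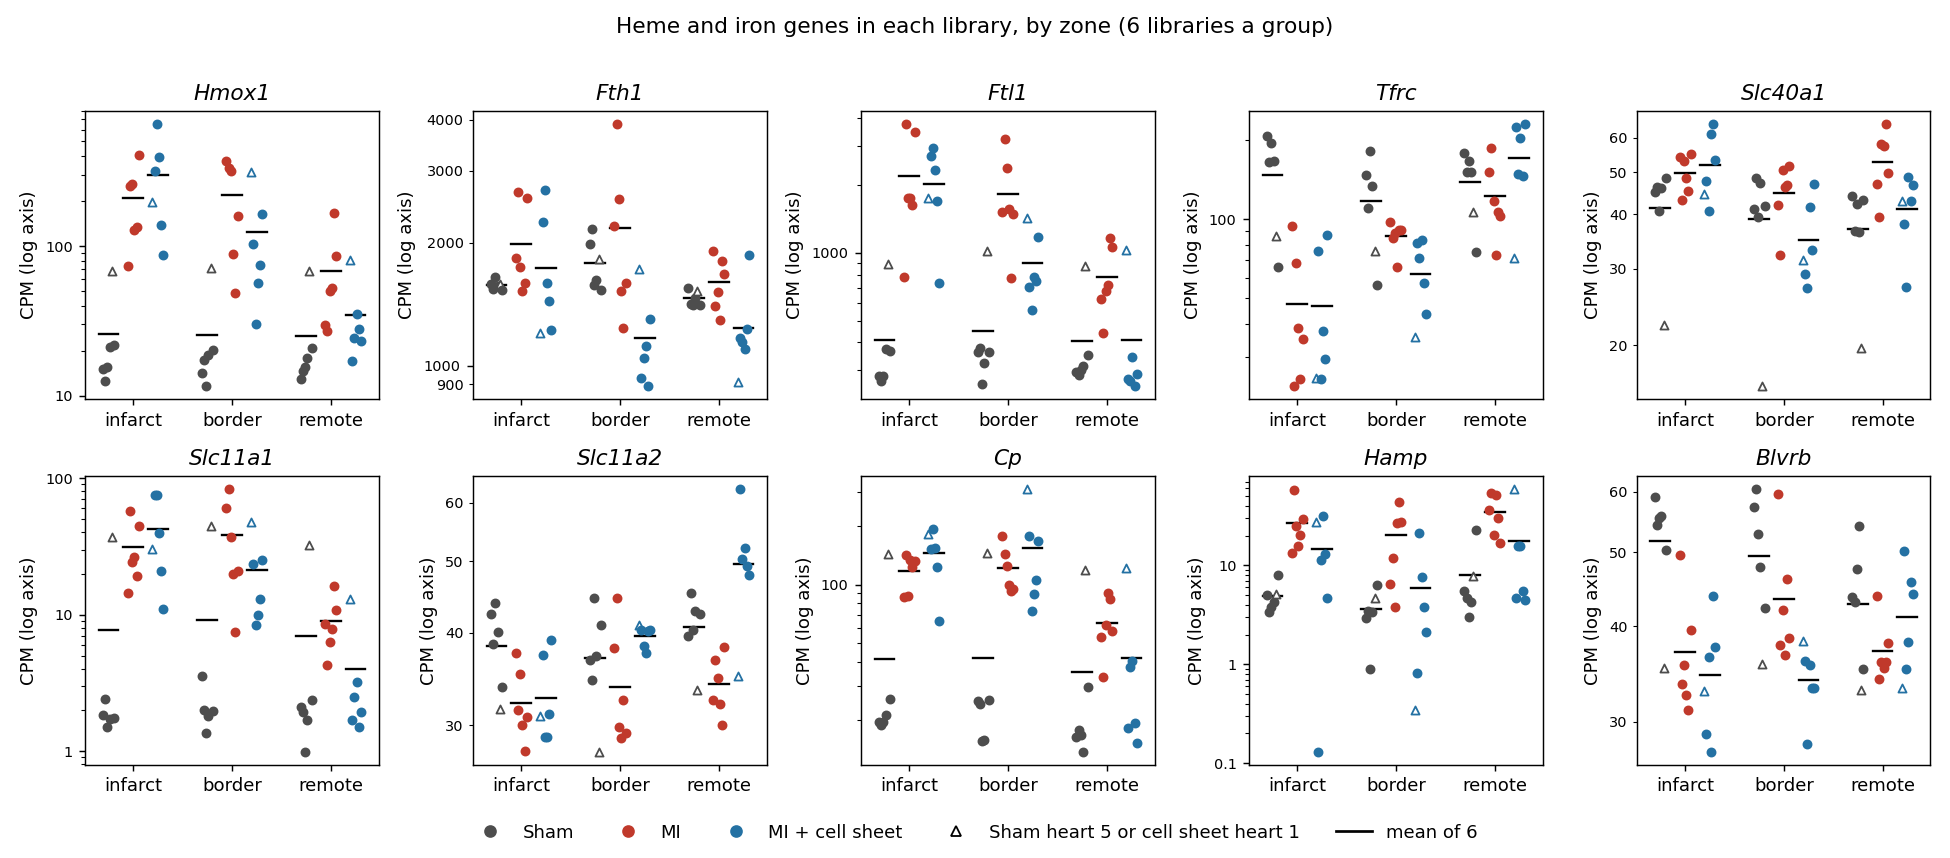
Level of each of the 10 genes in CPM (log axis) in every library, by zone (x axis) and treatment (colour), with a black line at the mean of 6 and open triangles for sham heart 5 and cell sheet heart 1. Hmox1, Ftl1 and Hamp sat higher in untreated MI than in most sham libraries in all 3 zones, while Tfrc was lowest in the infarct zones of both ligated groups.

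Hmox1 encodes heme oxygenase 1, the inducible enzyme that opens the heme ring. Its lowest, median and highest levels in the infarct zone were 12.5, 18.4 and 68.7 CPM in sham and 73.7, 194 and 406 CPM in untreated MI. The groups did not overlap, and the highest sham value was that of heart 5. Hmox1 was 7.94-fold higher, with a log2 fold change of 2.99 ± 0.52 (SE; adjusted p = 0.00117). Border values were 11.6, 18.0 and 71.9 CPM in sham and 48.3, 238 and 370 CPM in untreated MI, an 8.53-fold rise (log2 3.09 ± 0.60 SE, adjusted p = 0.00307). Only sham heart 5 reached into the untreated MI range there. Remote values were 13.0, 16.7 and 67.8 CPM in sham and 26.9, 51.2 and 166 CPM in untreated MI, and the log2 difference of 1.45 ± 0.52 missed the threshold (adjusted p = 0.0561). Without sham heart 5 it was 2.07 (adjusted p = 0.000898), and leaving out MI heart 1 or MI heart 2 also brought it past the threshold. The infarct zone effect was larger than the remote zone effect by 1.65 ± 0.44 on the log2 scale (treatment by zone interaction with the animal as a block, adjusted p = 0.0149), a test in which 28.9% of all genes were called, 13.6% higher and 15.3% lower.

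Blvrb, a biliverdin reductase abundant in red blood cells, moved the other way and by far less. Its infarct zone levels were 35.3, 54.9 and 59.0 CPM in sham and 31.1, 34.6 and 49.6 CPM in untreated MI, a fall of 0.49 ± 0.14 (SE, log2; adjusted p = 0.0134). The ranges overlapped through sham heart 5, the lowest sham library. With library size scaling the log2 difference was -0.22 and no longer called. Border and remote log2 differences were -0.18 (adjusted p = 0.368) and -0.20 (adjusted p = 0.223). The summed markers of red blood cells, 10 genes led by hemoglobin chains, had infarct zone medians of 2030 CPM in sham and 2000 CPM in untreated MI, and their part in the Blvrb difference was not tested.

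The ferritin chains parted. Fth1 encodes the heavy chain, which oxidizes iron for storage, and its infarct zone levels of 1529, 1578 and 1652 CPM in sham and 1520, 1789 and 2659 CPM in untreated MI overlapped (log2 0.32 ± 0.17, adjusted p = 0.134). With library size scaling its log2 difference was 0.59 and was called. Border levels were 1533, 1725 and 2157 CPM in sham and 1236, 1898 and 3915 CPM in untreated MI, and remote levels 1406, 1443 and 1546 CPM against 1295, 1594 and 1911 CPM, with neither difference past the threshold (adjusted p = 0.399 and 0.44). Untreated hearts thus spread more widely than sham hearts, with no shift of the group past the test.

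Ftl1 encodes the light chain, which helps the iron core form. Its infarct zone levels were 270, 324 and 892 CPM in sham and 784, 1759 and 3754 CPM in untreated MI, a 5.25-fold rise (log2 2.39 ± 0.43 SE, adjusted p = 0.00132). Among border libraries, sham had 262, 362 and 1018 CPM and untreated MI libraries 772, 1547 and 3225 CPM, a 4.07-fold rise (adjusted p = 0.00336). In both zones the only sham library inside the untreated MI range was that of heart 5. Remote levels were 287, 308 and 872 CPM in sham and 441, 697 and 1162 CPM in untreated MI, a 1.93-fold rise (log2 0.95 ± 0.32, adjusted p = 0.0436). That remote call was lost when any of sham hearts 1, 2, 3, 4 and 6 or MI hearts 3 to 6 was left out (adjusted p up to 0.106), and without sham heart 5 the log2 difference was 1.34 (adjusted p = 0.000159). The infarct zone effect on Ftl1 exceeded the remote zone effect by 1.34 ± 0.37 on the log2 scale (adjusted p = 0.0156).

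The number of Fth1 reads per Ftl1 read, which is not corrected for transcript length and is compared only between groups, was 4.55 ± 1.55 (SD, n = 6) in sham and 1.10 ± 0.61 (SD, n = 6) in untreated MI infarct zones (exact permutation test, 2-sided, p = 0.00433, adjusted over 6 tests 0.013). For border zones it was 4.72 ± 1.56 and 1.23 ± 0.25 without overlap (exact permutation p = 0.00216, the smallest that 924 arrangements allow, adjusted 0.013). For remote zones it was 4.21 ± 1.27 and 2.24 ± 0.73 (exact permutation p = 0.013, adjusted 0.026). Ferritin-like copies took few reads, with 154 for Ftl1l1, 10 for Fthl17e and 3 for Ftmt over all libraries, against 1145831 for Ftl1 and 1600120 for Fth1.

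**Figure D2:**
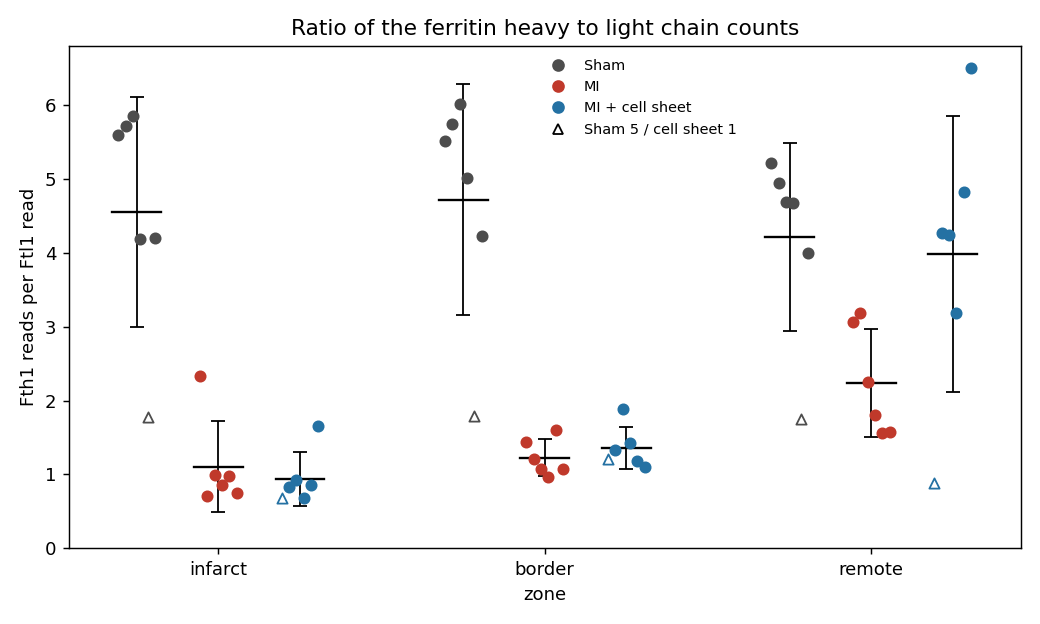
Reads of Fth1 per read of Ftl1 (y axis, from 0) in each library by zone and treatment, with black bars at the mean ± SD of 6 and open triangles for sham heart 5 and cell sheet heart 1. The ratio was 4.55, 4.72 and 4.21 in the sham infarct, border and remote zones and 1.10, 1.23 and 2.24 in untreated MI.

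Tfrc, the transferrin receptor that brings iron into cardiomyocytes, fell in the infarct zone. Its levels were 65.9, 166 and 207 CPM in sham and 23.2, 37.0 and 94.5 CPM in untreated MI, a 3.12-fold fall (log2 -1.64 ± 0.40 SE, adjusted p = 0.00571). Sham hearts 5 and 6 were the low sham libraries and lay inside the untreated MI range. The border zone held 56.4, 122 and 183 CPM in sham and 65.8, 89.8 and 97.6 CPM in untreated MI (log2 -0.44 ± 0.24, adjusted p = 0.161), which passed the threshold only without sham heart 6 (log2 -0.59, adjusted p = 0.0404). Remote levels of 74.9, 151 and 178 CPM in sham and 72.8, 112 and 187 CPM in untreated MI did not differ past the test (log2 -0.17, adjusted p = 0.625). The difference between the infarct and remote zone effects was -1.52 ± 0.34 on the log2 scale (adjusted p = 0.00544). The border zone effect on Tfrc exceeded the infarct zone effect by 1.37 ± 0.29, which missed the threshold (adjusted p = 0.341).

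Slc11a2 encodes DMT1, which moves iron out of the endosome after transferrin uptake. Its infarct zone levels were 31.5, 39.4 and 44.0 CPM in sham and 27.7, 31.1 and 37.6 CPM in untreated MI, and the fall of 0.27 ± 0.10 on the log2 scale only just passed (adjusted p = 0.0488). It was lost without any of sham hearts 1 to 4 or MI hearts 2, 4, 5 and 6 (adjusted p up to 0.108), and library size scaling gave a log2 difference of 0. Its border difference was -0.12 (adjusted p = 0.497) and its remote difference -0.26 (adjusted p = 0.0503). The remote difference passed without sham heart 5, MI heart 2 or MI heart 6, with -0.31 and an adjusted p of 0.00698 without sham heart 5.

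Slc11a1 encodes NRAMP1, the phagosomal metal pump of macrophages and neutrophils. Sham infarct zones held 1.51, 1.80 and 36.8 CPM and untreated MI 14.4, 25.4 and 57.2 CPM, border zones 1.36, 1.98 and 44.5 CPM against 7.50, 29.0 and 83.0 CPM, and remote zones 0.989, 2.02 and 32.5 CPM against 4.25, 8.19 and 16.3 CPM. In each zone the highest sham value was that of heart 5, and it lay above the untreated MI median, while the other sham means were 1.84 ± 0.33, 2.13 ± 0.83 and 1.82 ± 0.53 CPM (SD, n = 5). With all 12 libraries the log2 differences of 1.97 ± 0.85, 2.03 ± 0.94 and 0.36 ± 0.79 missed the threshold (adjusted p = 0.07, 0.0986 and 0.77). Without sham heart 5 they were 4.06 (adjusted p = 1.8e-05), 4.16 (adjusted p = 0.000164) and 2.31 (adjusted p = 9.7e-05), with 64.8%, 60.8% and 46.5% of all genes called. The infarct zone result also passed without MI heart 1.

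Slc40a1 encodes ferroportin, the iron exporter. Infarct zone levels of 22.3, 45.6 and 48.6 CPM in sham and 43.2, 50.8 and 55.2 CPM in untreated MI overlapped (log2 0.26 ± 0.16, adjusted p = 0.199), and the low sham value was again heart 5. Border levels were 16.1, 41.5 and 48.5 CPM against 32.2, 46.5 and 51.6 CPM (adjusted p = 0.47). Remote levels were 19.7, 39.4 and 44.1 CPM against 39.4, 53.5 and 64.6 CPM (log2 0.51 ± 0.18, adjusted p = 0.0517). The remote difference was 0.38 and past the threshold without sham heart 5 (adjusted p = 0.0157), and it also passed without MI heart 2.

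Cp encodes ceruloplasmin, the copper oxidase that loads exported iron onto transferrin. Infarct zones held 18.9, 20.5 and 143 CPM in sham and 86.0, 128 and 143 CPM in untreated MI, and sham heart 5, at the top of both groups, was the only sham library above the lowest untreated MI library. Cp was 2.79-fold higher (log2 1.48 ± 0.52, adjusted p = 0.0329), and 2.92-fold higher in the border zone (log2 1.55 ± 0.54, adjusted p = 0.0361), where sham held 15.8, 24.8 and 145 CPM and untreated MI 92.2, 112 and 178 CPM. Both calls depended on the libraries: the infarct call was lost without any of sham hearts 1, 2, 3, 4 and 6 or MI hearts 2, 4, 5 and 6 (adjusted p up to 0.0681), and the border call without any of sham hearts 1, 2, 3, 4 and 6 or MI hearts 1 to 3 (adjusted p up to 0.0749). Without sham heart 5 the log2 differences were 2.48 (adjusted p = 7.83e-06) and 2.53 (adjusted p = 1.87e-05). Remotely, where sham held 13.8, 17.4 and 119 CPM and untreated MI 33.6, 59.8 and 90.5 CPM, the difference was 0.83 with all libraries (adjusted p = 0.255) and 1.75 without sham heart 5 (adjusted p = 8.17e-05).

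Hamp, the gene for hepcidin, was the member called in all 3 zones whichever heart was left out. Infarct zone levels were 3.42, 4.64 and 8.05 CPM in sham and 13.4, 22.6 and 58.2 CPM in untreated MI with no overlap, a 5.41-fold rise (log2 2.43 ± 0.36 SE, adjusted p = 0.000455). Border levels were 0.904, 3.39 and 6.31 CPM in sham and 3.79, 19.2 and 44.1 CPM in untreated MI, a 5.57-fold rise (adjusted p = 0.00789). Remote sham libraries held 3.03, 5.13 and 22.9 CPM and untreated MI 17.0, 33.1 and 54.4 CPM, a 4.33-fold rise (adjusted p = 0.00745). The high sham value in the remote zone was that of heart 6, not heart 5, and it was the only sham library in the untreated MI range. The rise did not differ between the infarct and remote zones past the test (log2 difference 0.04 ± 0.43, adjusted p = 0.952).

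**Figure D3:**
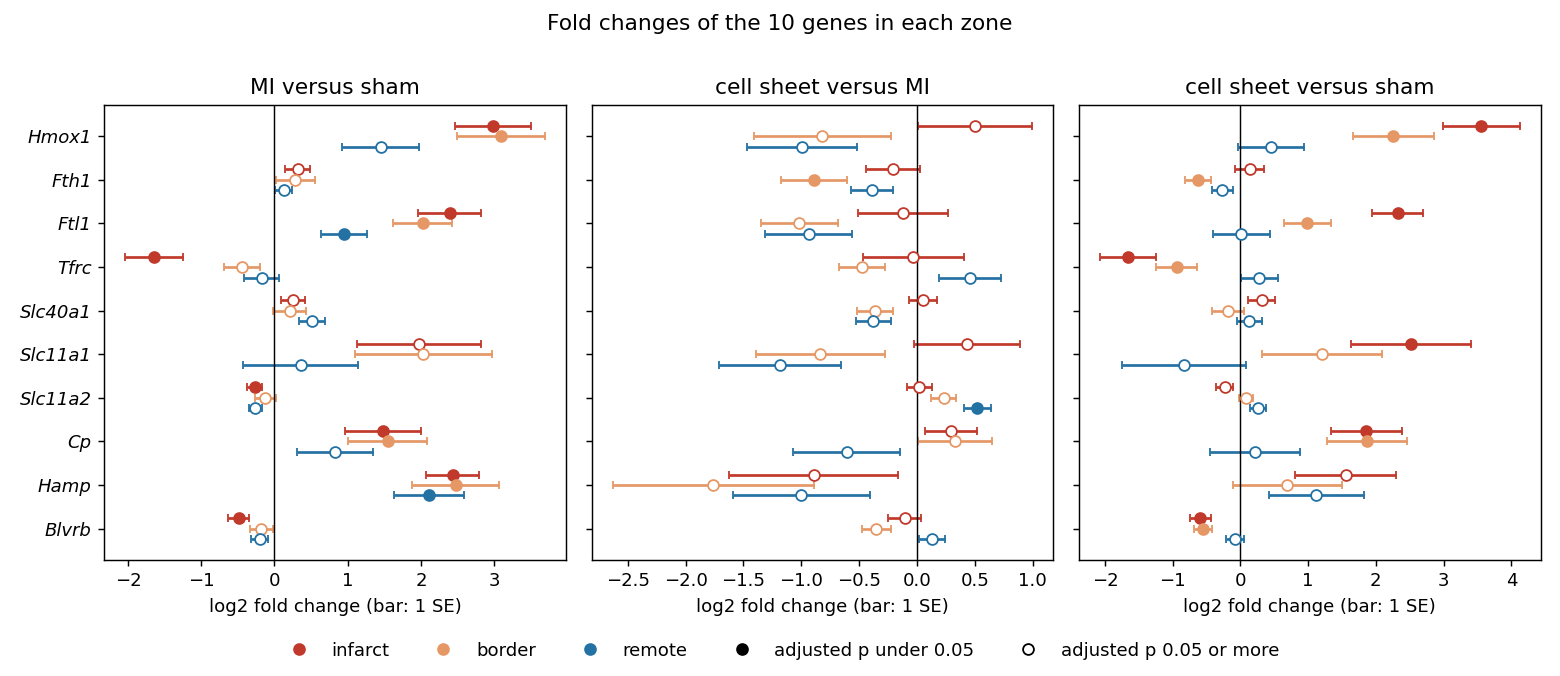
Log2 fold change ± 1 SE of each gene (rows) in the infarct, border and remote zones (colours) for the comparisons of untreated MI with sham, cell sheet with untreated MI, and cell sheet with sham, with filled points where the adjusted p was under 0.05. Hamp stood at 2.43, 2.48 and 2.11 in the left panel, and 2 points are filled in the middle panel, Fth1 in the border zone and Slc11a2 in the remote zone.

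The comparison of cell sheet hearts with untreated MI hearts asks what the sheet changed in infarcted tissue. It shares the untreated MI libraries with the comparison above. In the infarct zone 0 of the 10 genes and 0 of all 16196 genes (0%) were called by edgeR, 1341 genes had an unadjusted p under 0.05, and DESeq2 called 56 genes. The median absolute log2 fold change was 0.16 both over the 10 genes and over all genes. Hmox1 was 86.8, 257 and 655 CPM in cell sheet infarct zones, a log2 difference from untreated MI of 0.50 with a 95% interval of -0.60 to 1.60. Ftl1 was 736, 2044 and 2915 CPM (log2 -0.12, interval -0.98 to 0.74), and Tfrc 24.6, 33.5 and 87.4 CPM (log2 -0.03, interval -1.01 to 0.95). Hamp spread from 0.131 CPM, or 3 counts, to 31.2 CPM around a median of 12.2 CPM (log2 -0.89, interval -2.52 to 0.74). Each of these 4 intervals spans more than 1 on the log2 scale. Narrower ones were found for Slc40a1 (-0.22 to 0.33) and Slc11a2 (-0.22 to 0.27).

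In the border zone 1 of the 10 genes fell and 0 rose (18% of all genes called, 8.47% higher and 9.48% lower), and the median absolute log2 fold change was 0.65 over the 10 genes and 0.29 over all genes. Fth1 was 891, 1082 and 1724 CPM in cell sheet hearts and 1236, 1898 and 3915 CPM in untreated MI, with overlapping ranges and a 1.85-fold fall (log2 -0.89 ± 0.28 SE, adjusted p = 0.047). The call was lost without any of MI hearts 1, 2, 3 and 6 or cell sheet hearts 2 to 6 (adjusted p up to 0.11) and with library size scaling (log2 -0.85). Ftl1 had 557, 767 and 1430 CPM against 772, 1547 and 3225 CPM (log2 -1.02 ± 0.33, adjusted p = 0.0512) and passed without MI heart 5 or cell sheet heart 1 (adjusted p as low as 0.0232). Since both chains were lower, the ratio of Fth1 to Ftl1 reads was 1.35 ± 0.28 against 1.23 ± 0.25 (SD, n = 6; exact permutation p = 0.444, adjusted 0.532).

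Other members of the border zone did not pass with all libraries. Hmox1 had 30.0, 89.3 and 313 CPM in cell sheet hearts and a log2 difference of -0.82 (interval -2.14 to 0.50). For Hamp, the cell sheet values were 0.348, 2.95 and 21.1 CPM, and the difference of -1.76 ± 0.87 (adjusted p = 0.184) passed without cell sheet heart 3, the highest library (log2 -2.78, adjusted p = 0.0362). Slc11a2 was 37.5, 40.3 and 41.0 CPM, and its difference of 0.23 (adjusted p = 0.157) passed without MI heart 2 (0.33, adjusted p = 0.0207). Blvrb differed by -0.35 (adjusted p = 0.0702), Tfrc by -0.48 (adjusted p = 0.121) and Slc40a1 by -0.36 (adjusted p = 0.131). Macrophage markers summed to medians of 3120 CPM in cell sheet and 6650 CPM in untreated MI border zones, with ranges of 1930 to 6450 and 3010 to 9240 CPM, while 1 of 10 was lower by the test. Adipocyte markers, 7 genes, had a median of 279 CPM and a highest value of 709 CPM in cell sheet border zones and a median of 1.03 CPM in untreated MI, where 3 of the 5 tested were higher with the sheet. The part of these cells in the border zone differences was not tested. Cell sheet heart 1, the border library with few cardiomyocyte transcripts, had the highest macrophage marker sum of its group. Without it 2 members were called, Fth1 (log2 -1.02 ± 0.29, adjusted p = 0.03) and Ftl1 (-1.19 ± 0.33, adjusted p = 0.0303), with 18.8% of all genes called.

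In the remote zone the cell sheet hearts held 1 member that was higher than in untreated MI and 0 that were lower (17.1% of all genes called, 10.3% higher and 6.79% lower). This was Slc11a2, with 35.0, 49.8 and 62.6 CPM against 30.0, 33.6 and 38.3 CPM (log2 0.52 ± 0.12 SE, adjusted p = 0.0146), and cell sheet heart 1 was the only cell sheet library inside the untreated MI range. The median absolute log2 fold change was 0.56 over the 10 genes and 0.29 over all genes. The cell sheet medians of the next 5 genes lay closer to the sham than to the untreated MI medians. Hmox1 had 17.1, 26.0 and 80.7 CPM, Ftl1 255, 281 and 1035 CPM, Slc11a1 1.50, 2.22 and 12.9 CPM, Cp 15.4, 28.5 and 121 CPM and Hamp 4.52, 10.5 and 58.8 CPM. In all 5 genes the highest value came from cell sheet heart 1, which also had the lowest Tfrc, 71.5 CPM against a median of 176 CPM. None of these 6 genes passed with all 12 libraries (adjusted p = 0.152, 0.0932, 0.129, 0.366, 0.245 and 0.243, in the order named).

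Without cell sheet heart 1, 7 of the 10 genes were called in the remote zone, and so were 41.6% of all genes. Hmox1 was then lower by 1.44 ± 0.41 on the log2 scale (adjusted p = 0.0133), Ftl1 by 1.46 ± 0.22 (adjusted p = 0.000378), Slc11a1 by 2.06 ± 0.33 (adjusted p = 0.000536), Cp by 1.29 ± 0.29 (adjusted p = 0.00364) and Hamp by 1.93 ± 0.41 (adjusted p = 0.00263). Tfrc was higher by 0.62 ± 0.21 (adjusted p = 0.0301) and Slc11a2 by 0.61 ± 0.09 (adjusted p = 0.00042). The mean Ftl1 level without this heart was 287 ± 35.0 CPM (SD, n = 5) against 781 ± 276 CPM in untreated MI (SD, n = 6), and the mean Hmox1 level 25.6 ± 6.70 CPM against 68.6 ± 52.4 CPM. Among the fits that left out 1 heart, Fth1 passed only without cell sheet heart 6 (adjusted p = 0.0389) and Slc40a1 only without MI heart 2 (adjusted p = 0.0471). The Fth1 to Ftl1 read ratio was 3.98 ± 1.87 in cell sheet and 2.24 ± 0.73 in untreated MI remote zones (SD, n = 6, exact permutation p = 0.0563, adjusted 0.0844). Without cell sheet heart 1 the cell sheet mean was 4.60 (exact permutation p = 0.00433). Its adjusted p of 0.00649 is over 6 tests run without this heart and sham heart 5. Cell sheet heart 1 had the lowest ratio of its group, 0.882, and the highest Ftl1, so leaving it out is not independent of the values tested.

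**Figure D4:**
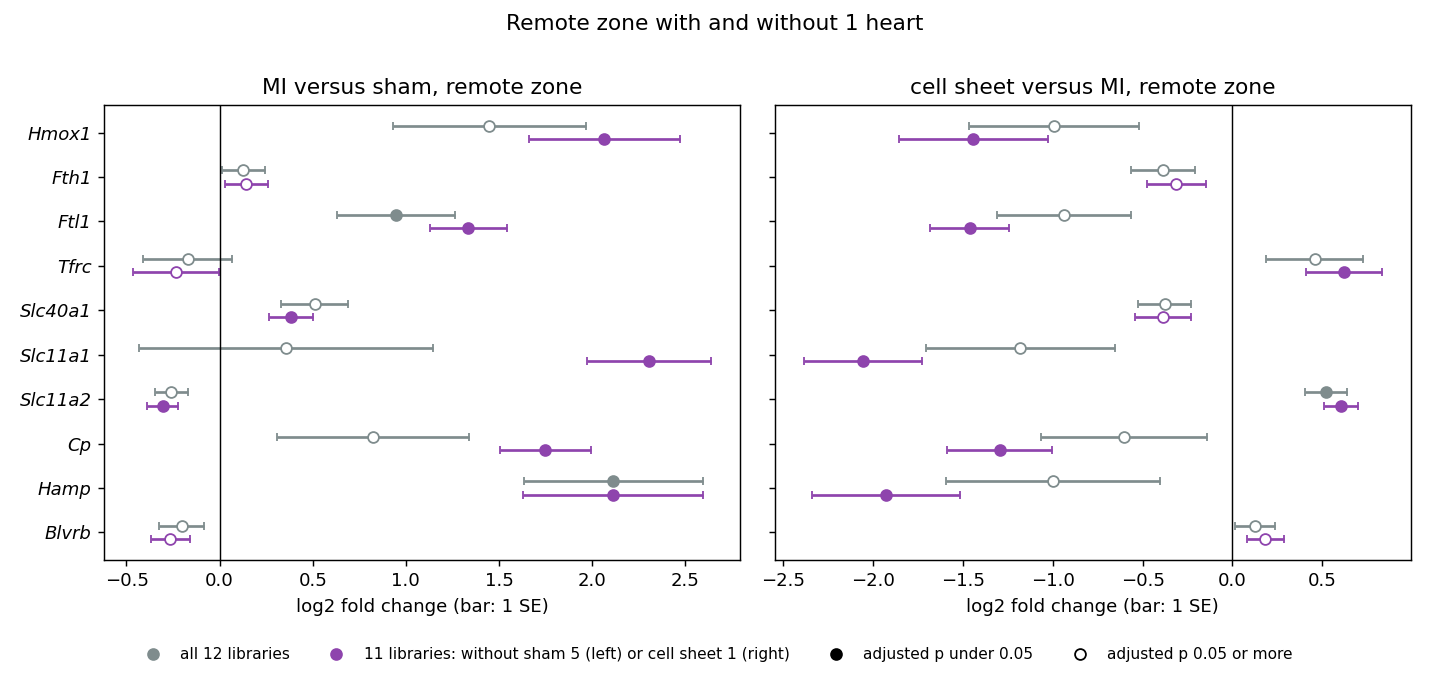
Log2 fold change ± 1 SE in the remote zone with all 12 libraries (grey) and without 1 heart (purple), which is sham heart 5 on the left and cell sheet heart 1 on the right, with filled points where the adjusted p was under 0.05. The members called went from 2 to 7 on the left, where the share of all genes called went from 25.8% to 46.5%, and from 1 to 7 on the right, where it went from 17.1% to 41.6%.

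Differences between zones in the effect of the sheet were tested as interactions with the animal as a block. No member and 0% of all genes were called for infarct against remote, border against remote or border against infarct zones by edgeR, although 4190, 3430 and 2012 genes had an unadjusted p under 0.05. Without cell sheet heart 1 the effect was higher in the infarct than in the remote zone for Slc11a1 (log2 2.37, adjusted p = 0.0385) and Cp (1.50, adjusted p = 0.0184) and lower for Slc11a2 (-0.58, adjusted p = 0.0252), with 11.8% of all genes called. For Blvrb it was then lower in the border than in the remote zone (-0.53, adjusted p = 0.0499), with 1.28% of all genes called.

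Cell sheet hearts were also set against sham hearts, which share their libraries with the comparisons above. In the infarct zone 4 members were higher and 2 lower (57.9% of all genes called, 28.6% higher and 29.2% lower). Hmox1 was 11.8-fold higher with no overlap (adjusted p = 0.000409), Ftl1 5.00-fold (adjusted p = 0.000454), Slc11a1 5.75-fold (adjusted p = 0.0282) and Cp 3.63-fold higher (adjusted p = 0.0104), while Tfrc was 3.16-fold (adjusted p = 0.00522) and Blvrb 1.51-fold lower (adjusted p = 0.00709). The Slc11a1 call was lost without any of sham hearts 1, 2, 3, 4 and 6 or cell sheet hearts 2 and 3 (adjusted p up to 0.0767), and its log2 difference was 2.52 with all libraries and 4.49 without sham heart 5. Slc11a2 passed without sham heart 5 (adjusted p = 0.0247). Hamp differed by 1.55 on the log2 scale (adjusted p = 0.0909) and passed without cell sheet heart 2 (adjusted p = 0.00601).

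In the border zone 3 members were higher than in sham and 3 lower (43.6% of all genes called, 20.4% higher and 23.2% lower). Hmox1 was 4.79-fold (adjusted p = 0.00998), Cp 3.66-fold (adjusted p = 0.0236) and Ftl1 1.99-fold higher (adjusted p = 0.035). Fth1 was 1.55-fold (adjusted p = 0.02), Tfrc 1.92-fold (adjusted p = 0.0234) and Blvrb 1.47-fold lower (adjusted p = 0.00582), and these 3 calls were lost with library size scaling, which moved the median of all genes by 0.27. Leaving out single hearts ended the call of Ftl1 (sham hearts 1, 2, 3, 4 and 6, cell sheet hearts 1 and 6), Tfrc (sham heart 3, cell sheet heart 6) and Cp (sham hearts 1, 2 and 6, cell sheet heart 1), with adjusted p up to 0.0749, 0.0559 and 0.0527. Without sham heart 5 the count was 8 of 10, with Slc11a1 (log2 3.29, adjusted p = 0.000191) and Slc40a1 (-0.35, adjusted p = 0.0481) added, while the share of all genes called was 61.6%. Without cell sheet heart 1 the count was 4 of 10 and the share of all genes 39.4%. In the remote zone 0 of the 10 genes were called in a comparison where 0.0066% of all genes were, 1 by edgeR and 173 by DESeq2, with 1520 at an unadjusted p under 0.05, and without both sham heart 5 and cell sheet heart 1 it was again 0 of the 10, with 0.846% of all genes called.

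Within hearts, the infarct and remote zones of the same animals were compared with the animal as a block. In sham hearts 1 member, Blvrb, was higher in the infarct zone position, by 0.27 ± 0.07 on the log2 scale (adjusted p = 0.0111, with 32.4% of all genes called, 15.9% higher and 16.4% lower). In untreated MI hearts 5 members differed (36.4% of all genes called): Hmox1 by 1.69, Slc11a1 by 1.71, Ftl1 by 1.35 and Cp by 0.90 were higher in the infarct zone, and Tfrc was lower by 1.50, with adjusted p between 0.0107 and 0.0209. In cell sheet hearts 7 members differed (62.8% of all genes called). Slc11a1 was higher by 3.57, Hmox1 by 2.97, Ftl1 by 2.40, Cp by 2.11 and Slc40a1 by 0.33, and Tfrc fell by 1.99 and Slc11a2 by 0.61 on the log2 scale, with adjusted p between 0.00324 and 0.0177. Hamp did not differ between zones past the test in sham, untreated MI or cell sheet hearts, with log2 differences of -0.47, -0.43 and -0.38 (adjusted p = 0.091, 0.331 and 0.633).

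Over the 9 groups, the order of mean levels had few steps wider than the spread. Hmox1 ran from 297 ± 208 CPM (SD, n = 6) in the cell sheet infarct zone over 219 ± 137 in the untreated border and 209 ± 122 in the untreated infarct zone to 25.0 ± 21.1 CPM in the sham remote zone, and the ranges of each pair of neighbours overlapped. Tfrc was highest in the cell sheet remote zone, at 171 ± 61.2 CPM, and lowest in the infarct zones of untreated MI, 47.4 ± 28.2 CPM, and cell sheet hearts, 46.6 ± 27.8 CPM, which did not differ beyond their spread. Ftl1 fell into a high set, with 2191 ± 1161 CPM in untreated and 2022 ± 798 CPM in cell sheet infarct zones and 1829 ± 856 CPM in the untreated border zone, and the cell sheet border zone followed at 901 ± 332 CPM, a step wider than the SD of the groups on either side. The ranges of these border zones overlapped, and their difference missed the threshold (edgeR, adjusted p = 0.0512).

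Several members tracked the cell type markers across libraries, which is given as a description since the libraries share animals and groups. Lyz2 led the summed macrophage markers. Spearman's rho between a member and the summed macrophage markers over the 54 libraries was 0.95 for Slc11a1, 0.93 for Ftl1 and Cp and 0.89 for Hmox1. It was -0.72 for Tfrc, -0.69 for Slc11a2 and -0.53 for Blvrb. Fth1 (0.37), Hamp (0.31) and Slc40a1 (0.11) tracked these markers less. With the cardiomyocyte markers rho was -0.91 for Hmox1, -0.93 for Ftl1 and Cp, -0.92 for Slc11a1 and 0.81 for Tfrc, and -0.28 for Hamp. Hmox1, Ftl1, Slc11a1 and Cp also tracked other cell types. Their rho was 0.82 to 0.85 with neutrophil, 0.78 to 0.83 with fibroblast and 0.73 to 0.82 with T and B cell markers. Within the 18 libraries of sham, untreated MI and cell sheet hearts, rho of Hmox1 with the macrophage markers was 0.78, 0.87 and 0.96. Of the 10 macrophage markers 5 rose in the untreated infarct zone (22.7% of all genes higher), and 10 of 10 without sham heart 5, where 64.8% of all genes were called. In the remote zone 2 of 10 were lower with the sheet (6.79% of all genes lower), and 9 of 10 without cell sheet heart 1, where 41.6% of all genes were called. The part of these cells in the changes of the members was not tested.

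**Figure D5:**
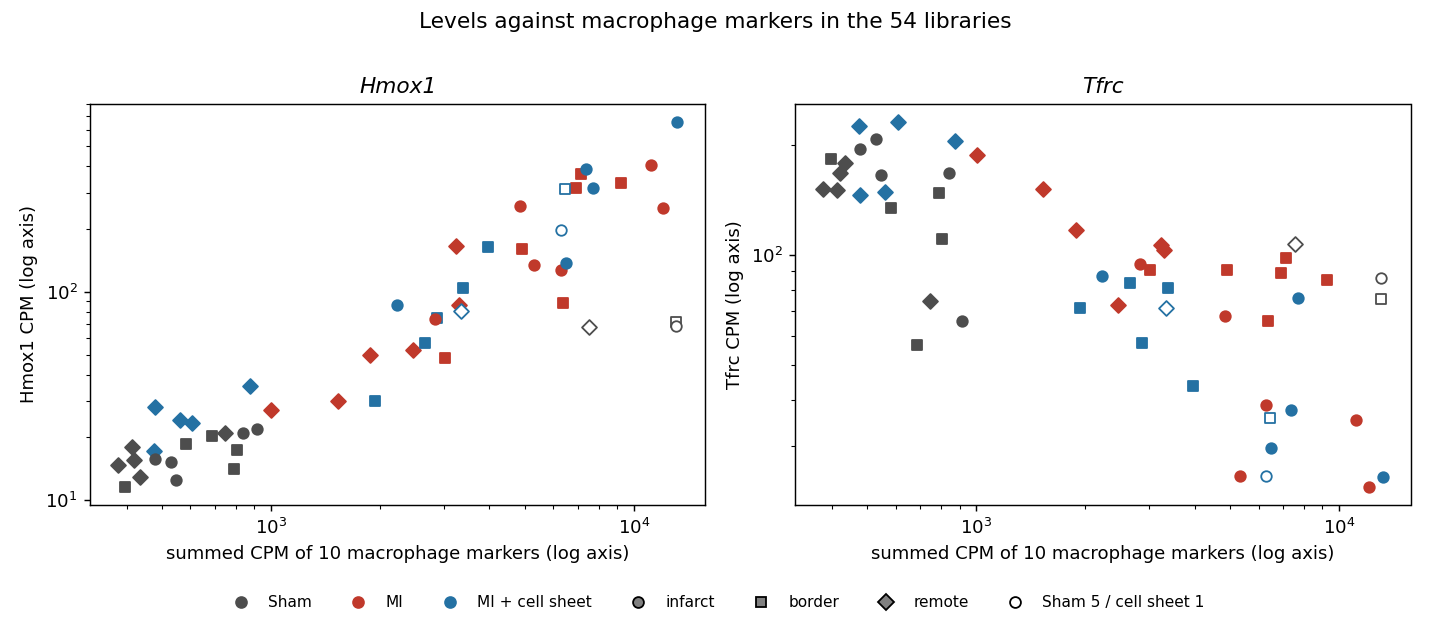
Level of Hmox1 (left) and Tfrc (right) in CPM against the summed CPM of 10 macrophage markers (both axes log) in the 54 libraries, coloured by treatment, with shapes for zones and open symbols for sham heart 5 and cell sheet heart 1. Spearman's rho was 0.89 for Hmox1 and -0.72 for Tfrc, and the 3 open symbols of sham heart 5 lie at the right among the libraries of ligated hearts.

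The genes with the most similar pattern over the 54 libraries, by Spearman's rho of log2 CPM among 14849 genes, were Lgmn (0.96), Ctsb (0.953) and Msr1 (0.95) for Hmox1. For Ftl1 they were Arl11 (0.975), Cd300le (0.971) and Lyl1 (0.971), for Slc11a1 Itgb2 (0.972), Ifnar1 (0.965) and Csf2ra (0.96), and for Cp Rassf2 (0.952) and Csf1r (0.95). Tfrc was most like Alas1 (0.856), which encodes the first enzyme of heme synthesis, Pdss1 (0.85) and Mrpl19 (0.839). For Hamp the highest values were lower, with 0.739 for Adamtsl3, 0.716 for Frmd3 and 0.716 for Ankrd23. For Fth1, Slc40a1, Slc11a2 and Blvrb they were Rpl18 (0.793), Sec62 (0.683), Gpat3 (0.823) and Gtpbp10 (0.824).

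Other genes of the pathway were followed in 6 lists. Of 9 heme synthesis genes, 7 fell and 0 rose in the untreated infarct zone against sham, with a median log2 fold change of -0.76, where 27.2% of all genes fell and 22.7% rose. Alas1 was 113, 281 and 374 CPM in sham and 33.1, 55.9 and 168 CPM in untreated MI (log2 -1.79 ± 0.43, adjusted p = 0.0056). Fech, which inserts the iron into the ring, fell by 1.17 (adjusted p = 0.00505). In border tissue 7 of 9 fell (23.2% of all genes lower) and remotely 4 of 9 (14.2% lower). Without sham heart 5 it was 7 of 9 remotely, in a fit that called 46.5% of all genes in both directions together. Of 14 genes for mitochondrial iron and iron-sulfur cluster assembly, 11 fell in infarct, 10 in border and 4 in remote tissue, and 0 rose. Isca1 fell by 1.57 (adjusted p = 0.00364), Glrx5 by 1.40 (adjusted p = 0.0027) and Bola3 by 1.40 (adjusted p = 0.0141). All 10 cardiomyocyte markers fell in the same infarct zone comparison, by a median of 1.91 on the log2 scale.

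Of the genes of heme capture, transport and degradation, 8 of 12 tested were higher and 1 lower in untreated infarct tissue (22.7% of all genes higher), 9 and 1 of 12 in border tissue (18.4% higher) and 3 and 0 of 11 remotely (11.7% higher). Lrp1, the receptor for hemopexin-bound heme, was 223, 257 and 427 CPM in sham and 504, 792 and 981 CPM in untreated MI infarct zones without overlap (log2 1.42 ± 0.20, adjusted p = 0.000387). Hemopexin itself, Hpx, rose by 1.95 (adjusted p = 0.00456) but stayed low, at 0.790 to 3.84 CPM, and haptoglobin, Hp, which binds free hemoglobin, rose by 1.57 (adjusted p = 0.00698) to 2.06 to 7.12 CPM. Cd163 is in this list and among the macrophage markers as well. Of the iron uptake and reduction genes, 7 of 10 rose and 0 fell in infarct tissue, and 5 of 9 rose in border and in remote tissue, against the same shares of all genes. Lcn2, lipocalin 2, which binds iron-carrying siderophores, was 3.43, 5.49 and 6.98 CPM in sham and 14.5, 24.1 and 36.5 CPM in untreated MI (adjusted p = 7.58e-05), and transferrin, Tf, 38.5, 53.0 and 93.2 CPM against 117, 154 and 179 CPM (adjusted p = 0.000774). Steap1, of a family of metal reductases, was listed from 0 to 0.302 CPM in sham and from 0.895 to 3.21 CPM in untreated MI (adjusted p = 0.00049).

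Among 11 regulators, 2 rose and 1 fell in the untreated infarct zone, no larger a share than over all genes (22.7% and 27.2%). The fall was that of Hjv, hemojuvelin, a co-receptor for bone morphogenetic proteins upstream of hepcidin, from a median of 225 to 23.4 CPM (log2 -2.30 ± 0.67, adjusted p = 0.0133). Hfe, the hemochromatosis protein, rose by 0.59 (adjusted p = 0.0381), and Aco1, the iron regulatory protein 1, rose by 0.50 (adjusted p = 0.0106). None of 4 tested genes of storage, iron chaperones and export beside the members passed in the 3 zones.

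With the sheet, the border zone held few calls in these lists. Neo1, neogenin, a partner of hemojuvelin, rose from 41.3, 47.2 and 52.0 CPM in untreated MI to 71.8, 84.4 and 108 CPM without overlap (log2 0.90 ± 0.11, adjusted p = 0.000629). Aco1 rose from 48.4, 51.6 and 57.5 to 60.1, 81.4 and 110 CPM, also without overlap (adjusted p = 0.00995), and Epas1, the hypoxia-inducible factor 2 alpha, rose by 0.45 (adjusted p = 0.0465), so that 3 of 11 regulators rose (8.47% of all genes higher). Lrp1 (log2 0.89, adjusted p = 0.0312) and the iron reductase Cybrd1 (0.72, adjusted p = 0.0457) were higher, and Hebp1 (-0.54, adjusted p = 0.048) and Hscb (-0.52, adjusted p = 0.00233), which serves cluster transfer, were lower.

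In the remote zone with the sheet, Lcn2 fell from 14.0, 23.7 and 36.4 CPM in untreated MI to 3.29, 3.84 and 5.27 CPM without overlap, and here cell sheet heart 1 did not stand apart (log2 -2.62 ± 0.27, adjusted p = 0.000991). Neutrophil markers, summed over 6 genes, were 11.5, 26.1 and 77 CPM in untreated MI and 2.64, 5.03 and 16 CPM with the sheet. Their part in the Lcn2 difference was not tested. Tf fell from a median of 115 to 47.8 CPM (log2 -1.05, adjusted p = 0.0219), Bmp6, a bone morphogenetic protein that induces hepcidin, by 0.71 (adjusted p = 0.0162) and Pgrmc1, a heme-binding protein, by 0.67 (adjusted p = 0.0287). Nfs1, the desulfurase of cluster assembly, rose from 62.7, 75.8 and 88.0 to 81.3, 151 and 176 CPM (log2 0.90, adjusted p = 0.00777), and the mitochondrial transporter Abcb8 (0.72, adjusted p = 0.00966) also rose. In that list, 4 of 14 genes rose and 1 fell (10.3% of all genes higher and 6.79% lower). Neo1 (0.53, adjusted p = 0.00756), Aco1 (0.39, adjusted p = 0.00798), the zinc and iron carrier Slc39a14 (0.46, adjusted p = 0.0174) and Cpox of heme synthesis (0.43, adjusted p = 0.0445) also rose. Without cell sheet heart 1, 5 of 9 heme synthesis genes rose in place of 1, 7 of 14 assembly genes in place of 4, and 5 of 9 uptake genes fell in place of 2, while the share of all genes called went from 17.1% to 41.6%, with 50% of the calls higher. Alas1 was then higher by 0.78 (adjusted p = 0.00712) and Hjv by 1.07 (adjusted p = 0.00122). Cardiomyocyte markers had remote medians of 42000 CPM in untreated MI and 67500 CPM with the sheet, with 2 of 10 higher and 5 of 10 without cell sheet heart 1, and their part in these differences was not tested.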

How the data were processed

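Polyadenylated RNA of 54 left ventricular pieces was sequenced, 1 library per heart and zone. The labels call the replicates technical, while the study describes separate hearts, and p-values measure the spread between these 6 libraries a group. The authors aligned reads with STAR to mRatBN7.2 and deposited whole-number, unnormalized counts per gene. Neither the counter nor a strand setting is given in the sources used here. The 5 lines of each table that name no gene held 17% to 42.8% of a library and were left out. No pair of libraries in a group agreed within sampling noise (chi-square per degree of freedom 7.97 to 539 over 135 pairs).

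Deposited counts were tested with edgeR's quasi-likelihood test (R 4.3.3, edgeR 4.0.16, limma 3.58.1), TMM scaling, filterByExpr at its defaults, Benjamini-Hochberg adjustment over all genes and a threshold of 0.05, on the 12 libraries of the groups compared. Zone comparisons and interactions used the animal as a block, since labels tie the 3 libraries of a heart. Between zones of the same animal, deviations from the group means correlated from -0.555 to 0.963, median 0.317, with 37 of 54 above 0.1. CPM use TMM factors over all 54 libraries, and intervals of log2 differences are 95% t intervals on 10 degrees of freedom. The Fth1 to Ftl1 ratio was tested with an exact permutation test, 2-sided. The fits were also run on simulated counts with known fold changes, no animal effects and no heart that stood apart. That check does not cover hearts that stand apart, as found in these data.

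The members, the pathway and marker lists and the tests were chosen with earlier results of these data known, so no p is given over a list. Named genes are all members, up to 3 genes of each pathway list with the largest called change in the untreated infarct zone against sham and in the border and remote zones with the sheet, and 3 genes most alike to each member, or the first of these. Some genes that this rule names are not reported here. Alternatives were DESeq2 1.42.0, no filter, a minimum of 10 counts per library, RLE size factors, library size, all 54 libraries in a single fit, the replicate number as a block or the animal block left out, and leaving out each heart. For interactions and zone comparisons only sham heart 5 and cell sheet heart 1 were left out, the hearts that stood apart in these same data. Leaving out both of these hearts from cell sheet against sham was added after seeing the data. The Fth1 to Ftl1 ratio tests, with and without these hearts, were not among the planned tests either. Promoter windows come from RefSeq. 1 pathway gene, Flvcr1, was not analysed.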

Additional observations from a re-analysis of the deposited data

Results flagged for a closer look

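In 90 sets of 6 libraries, 1 per member and group, log2 CPM were compared. A library was called far from the others where its gap to the nearest exceeded 0.625 of the whole range. This held 19 times, and 16 of the 19 were libraries of sham heart 5. Chance gives about 1 in 20 independent sets, but these sets share hearts and hold correlated members, so the 19 are not independent.

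Sham heart 5 was high for Hmox1, at 67.8 CPM in the remote, 71.9 in the border and 68.7 in the infarct zone. Its Ftl1 levels were 872, 1018 and 892 CPM in the same order, its Slc11a1 levels 32.5, 44.5 and 36.8 CPM, and its Cp levels 119, 145 and 143 CPM. It was low for Slc40a1, at 19.7, 16.1 and 22.3 CPM, and for Blvrb in the infarct zone, at 35.3 CPM. Its macrophage and lymphocyte markers are given in the report beside the first results. The part of these markers in the levels of the members was not tested.

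The remote library of cell sheet heart 1 was high for Ftl1, at 1035 CPM, and for Slc11a1, at 12.9 CPM. MI heart 4 was low for Tfrc in the border zone, at 65.8 CPM.

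The effect of untreated MI against sham differed between the infarct and remote zones for 5 members, by a test of the difference with the animal as a block. That test called 28.9% of all genes. On the log2 scale the difference was 1.65 for Hmox1, 1.34 for Ftl1, 1.63 for Slc11a1, 0.71 for Cp and -1.52 for Tfrc. Without sham heart 5 Cp no longer passed (0.73, adjusted p = 0.0624) and Blvrb did (-0.33, adjusted p = 0.0493), with 24.8% of all genes called.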

How the results depend on the processing

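Among the alternative values of the members' fold changes, 1928 kept their direction and their side of the threshold, 60 newly passed it, 85 no longer did and 7 changed sign where a value exceeded its SE. For untreated MI against sham in the remote zone, 2 members were called (25.8% of all genes). The count was 4 with library size (24.8% of all genes), with at least 10 counts in every library (28.9%) and with DESeq2 (24.5%). It was 1 with no filter (11.6%) and with all 54 libraries in a single fit (20.2%). With a heart left out it was 1 to 7 (7 without sham heart 5, where 46.5% of all genes were called). For the sheet against untreated MI, the border count of 1 (18% of all genes) was 0 with library size (17.5%) and with no filter (7.2%). It was 2 with DESeq2 (20.1%) and 0 to 2 with a heart left out. The remote count of 1 (17.1% of all genes) was 2 with DESeq2 (21.3%) and 1 to 7 with a heart left out (7 without cell sheet heart 1, where 41.6% of all genes were called). Without cell sheet heart 1 the interactions of the sheet gave 3 members for infarct against remote (11.8% of all genes called) and 1 for border against remote zones (1.28%).

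Numbers shared between treatment groups did not pair the hearts: deviations of same-numbered libraries correlated between -0.734 and 0.611, median -0.046, with 18 of 54 above 0.1. With the replicate block, 6 members were called for untreated MI against sham in the remote zone (29% of all genes called). For the sheet against untreated MI it was 0 in the border zone (7.46% of all genes) and 0 in the remote zone (0.013% of all genes). With no replicate block (no animal term), 0 members were called for the difference of MI against sham between infarct and remote zones (8.7% of all genes called). It was also 0 for infarct against remote zone in sham hearts, where the count over all genes, given below, fell as well.

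Signs changed with library size for Blvrb in the untreated border zone against sham (0.019), for Slc11a2 in the cell sheet infarct zone against sham (0.043), in the infarct against remote interaction of MI against sham (0.122) and in infarct against remote zones of MI hearts (0.002). In the remote zone of cell sheet against sham hearts, Slc11a1 ranged from -1.72 to 1.13 and Ftl1 from -0.53 to 0.41 with a heart left out, and Ftl1 was -0.14 without both sham heart 5 and cell sheet heart 1. Beyond the construction of each alternative, the cause was not tested.

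Counts over all genes moved by more than 1.5 times in the following fits. For untreated MI against sham the border count of 6517 was 4193 with the replicate block, and the remote count of 3952 was 7177 without sham heart 5. For the sheet against untreated MI the infarct count of 0 was 56 with DESeq2 and 6 with all 54 libraries in a single fit, and the border count of 2922 was 1214 with the block and 1941 without cell sheet heart 2. The remote count of 2623 was 2 with the block, 6450 without cell sheet heart 1 and as low as 1096 without another heart (MI heart 5). For cell sheet against sham hearts in the remote zone, 1 gene was called, with 0 to 17 when a heart was left out, 128 without both hearts, 173 with DESeq2, 0 with the block and 183 in the single fit. The MI interaction of infarct and remote zones went from 4748 to 1431 without the animal block, and infarct against remote zones of sham hearts from 4878 to 1081. The sheet's interactions, all at 0, gave 2011 (infarct against remote) and 216 (border against remote) without cell sheet heart 1, and 6 (border against remote) and 80 (border against infarct) without the animal block. The 12 libraries of a comparison limit what can be seen in variable genes such as Hamp. Depth limits little, since all members but Hamp and Slc11a1 had well over 10 counts in every library.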
